A study of Mus musculus with 16 samples.

Results

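The interferon response genes described here are 53 named mouse genes of the interferon pathway, chosen by name, of the 46078 genes in the count table. They hold the interferon receptors (4 genes), signalling proteins and transcription factors (8), RNA sensors and RNA-editing or RNA-activated enzymes (5), antiviral effectors (23), ubiquitin and ADP-ribose enzymes (5), interferon-inducible GTPases (5), and nuclear body and immunoproteasome genes (3). Each of the 53 symbols was matched to 1 gene of the table. Their levels were measured by RNA-Seq in haematopoietic stem cells (HSCs) of C57/Bl6 mice, collected by sorting for the LSK CD48-CD150+ phenotype, 30 cells to a pool, without treatment. HSCs came from the bone fraction (endosteal) or the flushed marrow (central) of limb bones, from wild-type (WT) mice or from Gfra2-/- mice. Gfra2-/- mice lack GFRα2, a neurotrophic factor receptor that cholinergic neurons need to survive. The deletion is not limited to neurons by its label, so HSCs and their surroundings carry it alike. There were 4 endosteal and 4 central WT libraries, and 4 endosteal and 3 central libraries labelled Gfra2-/-, each lettered from A within its group. The study calls the libraries of a group biological replicates. Age and sex of the mice are not given in the sources used here, nor whether each pool came from a different mouse, so p-values measure the spread between these libraries.

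Interferons are secreted proteins that signal infection. Type I interferons bind the receptor of IFNAR1 and IFNAR2 and type II interferon that of IFNGR1 and IFNGR2. Kinases on these receptors phosphorylate STAT proteins, which move to the nucleus and switch on genes that carry the interferon-stimulated response element (ISRE), bound by complexes with STAT2 and IRF9, or the gamma-activated site (GAS). In the BM, interferons are known to bring dormant HSCs into the cell cycle, and stem cells are known to express some interferon-stimulated genes, those of the IFITM family among them, in the absence of infection.

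Genes with an ISRE in the promoter are the textbook targets of this pathway. The 300-base RefSeq promoter windows (build GRCm38.p6, 250 bases before to 50 after the transcription start) were searched for the ISRE core (TTTC, then any 2 bases, then TTTC) and the GAS (TTCNNNGAA) on both strands. RefSeq gave 51 windows for 43 of the 53 genes. The ISRE core lay in 17 windows (33.3%), against 3.44% of all 32851 windows, and the GAS in 15 (29.4%), against 8.3%. The 2 motifs can overlap. The windows of the 5 genes with an ISRE core that had the smallest unadjusted p in any of the 4 comparisons are shown from 5′ to 3′ on the strand of the gene, with ISRE matches in capitals: Ifitm3 (chr7:141010695-141010994, minus strand), Ifitm2 (chr7:140955912-140956211, minus), Ifit1 (chr19:34640639-34640938, plus), Irgm1 (chr11:48871371-48871670, minus) and Ddx58 (chr4:40239776-40240075, minus).
Ifitm3: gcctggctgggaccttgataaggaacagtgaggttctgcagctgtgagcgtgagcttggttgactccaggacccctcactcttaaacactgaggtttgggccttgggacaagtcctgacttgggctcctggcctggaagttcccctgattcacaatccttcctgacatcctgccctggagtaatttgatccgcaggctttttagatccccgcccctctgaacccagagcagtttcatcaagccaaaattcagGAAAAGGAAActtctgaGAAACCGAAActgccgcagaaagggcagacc
Ifitm2: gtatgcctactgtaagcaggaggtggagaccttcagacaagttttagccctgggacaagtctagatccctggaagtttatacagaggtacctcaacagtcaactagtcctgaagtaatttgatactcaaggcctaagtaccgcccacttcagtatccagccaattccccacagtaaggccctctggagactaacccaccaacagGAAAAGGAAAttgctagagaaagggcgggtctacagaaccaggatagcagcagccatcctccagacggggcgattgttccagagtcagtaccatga
Ifit1: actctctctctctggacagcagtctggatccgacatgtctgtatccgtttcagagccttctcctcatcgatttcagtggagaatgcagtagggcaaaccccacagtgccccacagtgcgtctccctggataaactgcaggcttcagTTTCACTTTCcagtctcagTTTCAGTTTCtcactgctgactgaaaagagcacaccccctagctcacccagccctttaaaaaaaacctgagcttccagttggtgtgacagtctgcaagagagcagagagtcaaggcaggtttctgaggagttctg
Irgm1: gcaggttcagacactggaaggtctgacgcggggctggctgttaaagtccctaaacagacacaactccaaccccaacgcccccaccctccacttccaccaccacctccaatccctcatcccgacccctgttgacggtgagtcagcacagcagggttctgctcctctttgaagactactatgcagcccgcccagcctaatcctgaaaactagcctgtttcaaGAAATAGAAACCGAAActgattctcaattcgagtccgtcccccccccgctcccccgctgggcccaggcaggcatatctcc
Ddx58: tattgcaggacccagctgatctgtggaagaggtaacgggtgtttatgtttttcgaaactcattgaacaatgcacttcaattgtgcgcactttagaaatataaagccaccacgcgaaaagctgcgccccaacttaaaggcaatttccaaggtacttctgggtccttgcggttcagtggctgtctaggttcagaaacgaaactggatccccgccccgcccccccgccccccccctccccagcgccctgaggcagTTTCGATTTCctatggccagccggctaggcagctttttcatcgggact
In Ifitm3 the matches began 2 and 19 bases after the transcription start, and in Ifitm2 1 match began 46 bases before it. The matches of Ifit1 began 104 and 85 bases before the start and those of Irgm1, which share bases, 30 and 24 bases before it. In Ddx58 the match began 2 bases after the start. The window of Ifitm1 and that of Irf1 held no ISRE core, and Irf1 held a GAS, which says only that these letters were or were not in the window. The 17 genes with an ISRE core had a median level of 28.3 TPM and the 26 without one of 46.3 TPM.

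Before the comparisons, the libraries were checked against their labels. HSC and gate markers, Kit, Hlf and Mecom among them, had reads in all 15 libraries, and their summed level was 2128 to 4558 CPM (read counts scaled to the normalised library total). Cd48, against which cells were sorted, was at most 17.4 CPM. Gfra2, the gene deleted, had 0, 0, 0 and 1 reads in the endosteal and 0, 0, 4 and 0 reads in the central WT libraries. In libraries labelled Gfra2-/- it had 2, 47, 1 and 9 reads in the endosteal and 0, 1 and 0 reads in the central group. The reads of endosteal B and D thus go against the label, although the deleted stretch is not given in the sources used here and reads outside it would check nothing. For this reason the text speaks of libraries labelled Gfra2-/-.

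Markers of other lineages stood out in 5 libraries. The B lineage markers summed to 3546 CPM in endosteal D labelled Gfra2-/-, with 8 of 8 markers detected and Ighm, the most abundant, at 1597 CPM, against at most 737 CPM in the other libraries. The same library had erythroid markers at 670 CPM, Hbb-bs among them at 328 CPM, against at most 172 CPM elsewhere. Neutrophil markers summed to 3347 CPM in WT central D (S100a8 at 861 CPM), against 75.4 to 432 CPM elsewhere. Monocyte and macrophage markers summed to 2958 CPM in WT central C and to 1726 CPM in central C labelled Gfra2-/-, with Ly6c2 at 357 and 207 CPM and Lyz2 as the most abundant gene, against 312 to 774 CPM elsewhere. The list of plasmacytoid dendritic markers holds Bst2, one of the 53 genes. It summed to 820, 785 and 659 CPM in endosteal D and central C labelled Gfra2-/- and WT central C, and to 182 to 342 CPM elsewhere. Of this list, Siglech and Ccr9 held 242 and 2665 reads in central C labelled Gfra2-/-. They held only 0 and 2 reads in endosteal D and 0 and 3 in WT central C. In those libraries the sum came from other genes of the list, with Irf8 at 360 and 222 CPM. Central B labelled Gfra2-/- held T lineage genes, with 140, 48, 188 and 10 reads of Cd3d, Cd3e, Cd3g and Cd8a, against at most 2 reads of any of them in each other library, and 2919 reads of Ighm. The T lineage sum was highest in WT endosteal A (159 CPM), where Lck held 654 reads. Markers of NK cells summed to at most 120 CPM, those of megakaryocytes to 582 CPM and those of stroma to 161 CPM. Endosteal D and central C labelled Gfra2-/- and WT central C and D are called the 4 libraries with markers of other lineages. Values without them are given for some results only, where this is stated. For the other results none is given, among them Irf1 in the 4 comparisons and Irf3, Irf7, Irf8, Tap1, Stat3, Oas3 and Cd69. How far those values rest on these libraries is thus not shown here. Where leaving out central B labelled Gfra2-/- as well moved a value, this is given too (the 5 libraries), although central A is then alone in its group and is assumed to vary like the other libraries.

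**Figure D1:**
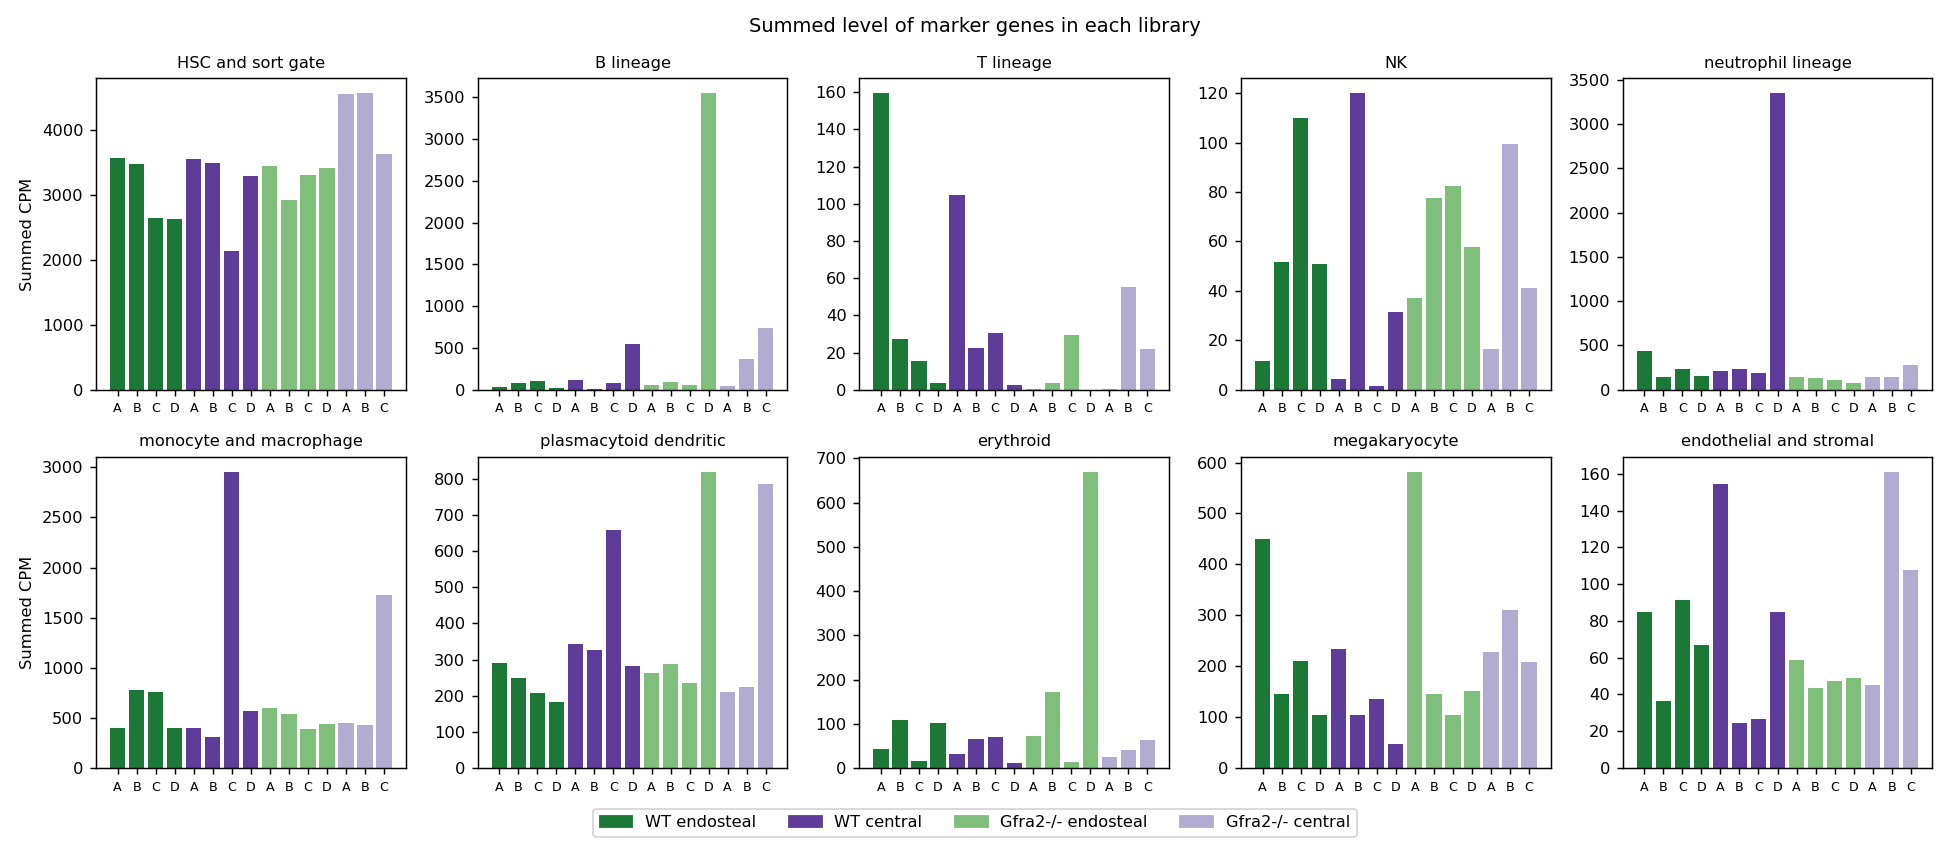
Summed level in CPM (vertical axes, each starting at 0, scales differ) of 10 marker lists in the 15 libraries (horizontal axes, libraries A to D or A to C within each group, coloured by group). B lineage markers were at 3546 CPM in endosteal D labelled Gfra2-/-, neutrophil markers at 3347 CPM in WT central D, and monocyte markers at 2958 CPM in WT central C.

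The interferon response genes were expressed at a basal level in these HSCs, and 3 of the 53 carried most of their summed level. On the length-corrected scale (TPM), Ifitm3, Ifitm1 and Ifitm2, membrane proteins that block viral entry, had median levels of 2984, 2719 and 1105 TPM. They ranked 28, 31 and 74 among 45143 genes. Together they made up 56.2% to 78.1% (median 73.2%) of the summed TPM of the 53 genes in each library. Next came the secreted glycoprotein gene Lgals3bp with 284 TPM, the immunoproteasome subunit Psmb8 and the virion tether Bst2 with 214 TPM each, and Ifi27 with 152 TPM. In all, 46 of the 53 genes had a median level of at least 10 TPM, 4 were between 1 and 10 TPM and 3 were under 1 TPM.

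Several interferon-induced genes were among the lowest of the 53. Isg15, the ubiquitin-like modifier, had a median of 10.5 TPM, Ifit1, which binds foreign RNA, 9.01 TPM, the master factor Irf7 5.71 TPM, and the dynamin-like GTPases Mx2 and Mx1 2.97 and 0.185 TPM. Oasl1 had a median of 0.118 TPM, and Ifit3 had 7 reads in 1 library and 0 in the other 14. The coefficient of variation of the CPM between libraries was highest for Ifit3 (387%), Oasl1 (178%), Mx1 (175%), Irf7 (130%) and Ifit1 (121%), against 28.0% for Ifitm3, 25.5% for Ifitm1 and 23.6% for Ifitm2. Of the 53 genes 43 had a read in every library and 35 had at least 5 CPM in every library. The neighbours Irf1 and Psmb9, near the top of the order, did not differ beyond their spread (Irf1 median 83.9 TPM, range 23.1 to 197 TPM, and Psmb9 83.5 TPM, 37.9 to 133 TPM). The genes lie in clusters: Ifitm2, Ifitm1, Ifitm3 and Irf7 on chromosome 7, Ifit2, Ifit3 and Ifit1 on chromosome 19, Gbp7 and Gbp2 on chromosome 3, Psmb9 and Psmb8 on chromosome 17, and Ifnar2, Ifnar1 and Ifngr2 on chromosome 16.

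**Figure D2:**
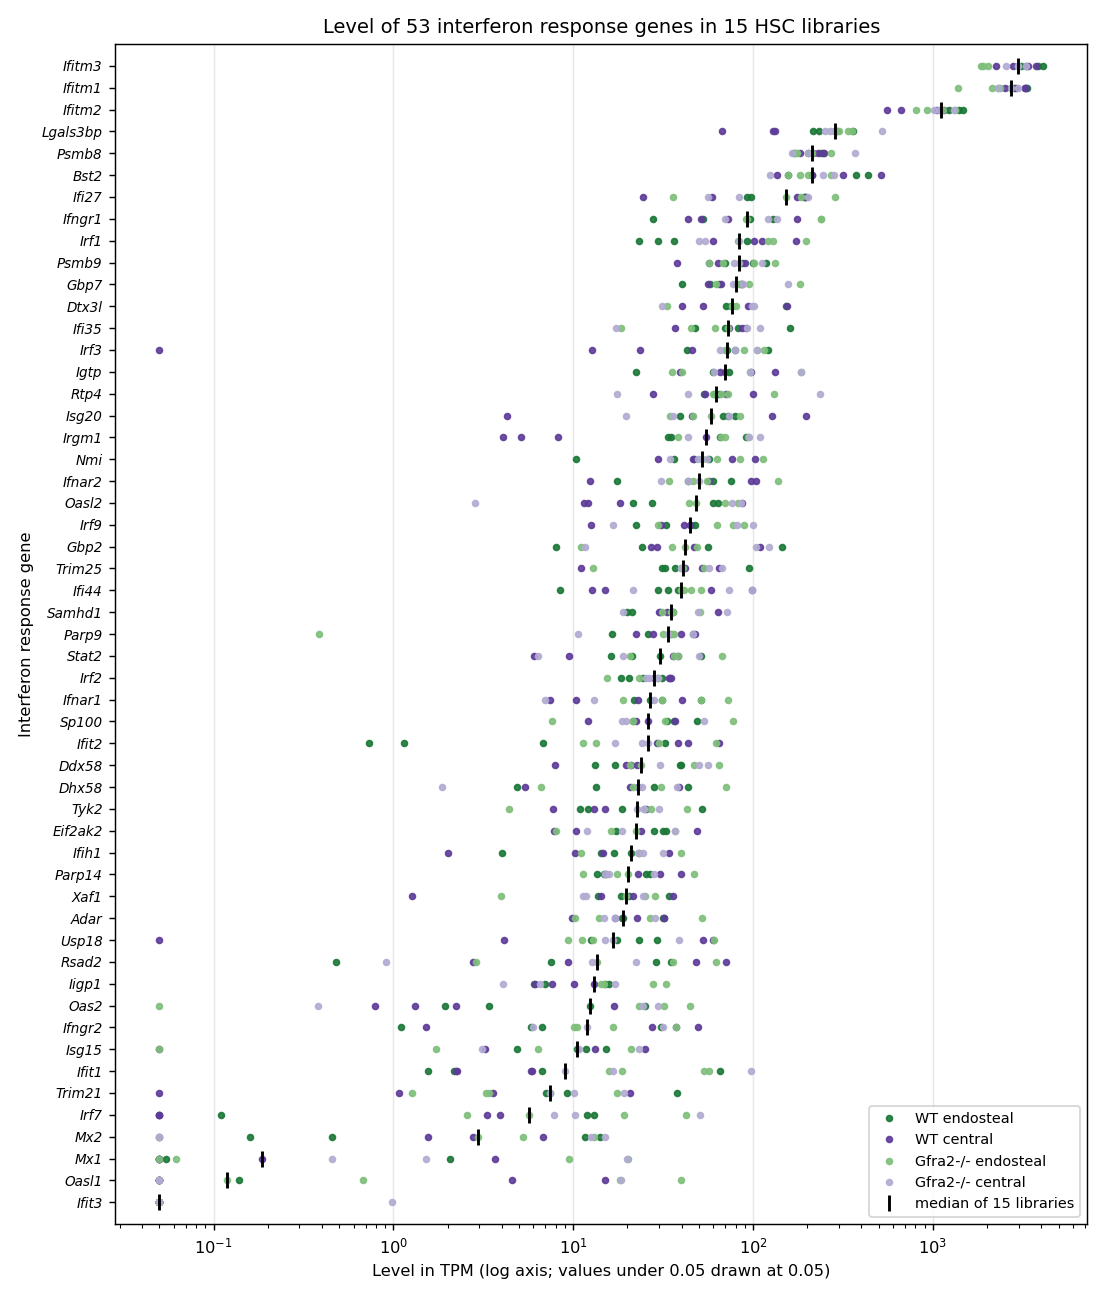
Level in TPM (horizontal log axis, values under 0.05 drawn at 0.05) of the 53 genes (vertical axis, by median level) in 15 libraries, coloured by group, with the median as a black bar. Ifitm3, Ifitm1 and Ifitm2 stand at 2984, 2719 and 1105 TPM, well above the next gene at 284 TPM, and Mx1, Oasl1 and Ifit3 have medians under 1 TPM.

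The interferon genes themselves were almost silent. Of the 21 ligand genes searched, Ifnab had 71 reads in WT endosteal C, Ifnk 17 reads in endosteal B labelled Gfra2-/- and Ifne 1 read in WT endosteal D, and the others had none in any library. No ligand was tested for that reason. A count of 0 allows up to 3 reads in a library.

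Each pair of groups was then compared across all genes with the quasi-likelihood test of edgeR, with p-values adjusted over all genes tested (false discovery rate, FDR). Fold changes are log2 values, endosteal minus central or Gfra2-/- minus WT. The 4 comparisons share libraries, so they are not independent of each other. In bulk pools, fewer cells of a kind and less RNA per cell cannot be told apart. None of the 53 genes passed an FDR of 0.1 in any comparison, or in the test of whether the compartment difference differed between the genotypes (interaction).

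Between endosteal and central WT HSCs 50 of the 53 genes could be tested. With 0.0% of all 11181 genes tested past the FDR, 0 of the interferon response genes passed it. At an unadjusted p under 0.05, 0 were higher (4.43% of all genes) and 2 lower (3.46%) in endosteal HSCs, Irf1 and Ifit2, against 7.89% of all genes in either direction. The groups did not overlap for 1 gene, Ifit2, which was lower (2.1% of all genes), and for 0 genes that were higher (4.27%), against 6.37% of all genes in either direction. DESeq2, which called 2.75% of the genes it tested, passed 1 gene, Oasl1 (FDR 0.0806). The median log2 fold change was -0.003 over the 50 genes and 0.03 over all genes. Central WT libraries were shallower, with 826487 to 3367289 reads on genes against 4416648 to 14003634 in endosteal WT libraries.

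Between endosteal and central HSCs labelled Gfra2-/- 52 genes were tested and 0 passed the FDR, as did 0.0% of all 13860 genes. At an unadjusted p under 0.05, 2 were higher in endosteal HSCs, Irf1 and Ifnar1 (2.74% of all genes), and 1 was lower, Ifitm3 (2.05%), against 4.79% of all genes in either direction. The groups did not overlap for Nmi, which was higher in endosteal HSCs (3.68% of all genes), and for 0 genes that were lower (3.67%, and 7.35% in either direction). DESeq2 passed 0 of the interferon response genes here and called 1.71% of the genes it tested. The median was -0.10 over the 52 genes and 0.03 over all genes.

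In central HSCs 51 genes were tested between the genotypes and 0 passed the FDR, against 0.051% of all 11772 genes. At an unadjusted p under 0.05, 2 were higher in libraries labelled Gfra2-/-, Ifit1 and Irgm1 (4.6% of all genes), and 1 was lower, Irf1 (4.14%), against 8.73% of all genes in either direction. The groups did not overlap for 4 genes that were higher, Ifit1, Irf7, Irf3 and Ddx58 (7.98% of all genes), and 2 that were lower, Ifit2 and Irf2 (4.45%, and 12.4% in either direction). The median was -0.08 over the 51 genes and 0.03 over all genes. With DESeq2, which called 3.33% of the genes it tested, Ifit1 passed (log2 fold change 2.87, FDR 0.0727).

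In endosteal HSCs 50 genes were tested between the genotypes and 0 passed the FDR, as did 0.0% of all 12970 genes. At an unadjusted p under 0.05, 1 was higher in libraries labelled Gfra2-/-, Irf1 (3.18% of all genes), and 2 were lower, Ifitm1 and Ifitm3 (3.52%), against 6.69% of all genes in either direction. The groups did not overlap for 3 genes, all lower and all of 1 family, Ifitm1, Ifitm2 and Ifitm3 (3.55% of all genes), and for 0 genes that were higher (2.68%, and 6.23% in either direction). The median was 0.09 over the 50 genes and 0.03 over all genes. DESeq2, which called 2.27% of the genes it tested here, passed Ifitm3 (FDR 0.0095), Ifitm1 (FDR 0.0834) and Oasl1 (FDR 0.00451).

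For the interaction 52 genes were tested and 0 passed the FDR, as did 0.0% of all 15416 genes. At an unadjusted p under 0.05 the coefficient was positive for Irf1 and Oasl1 (2.56% of all genes) and negative for 0 genes (4.41%, and 6.97% in either direction). Its median was 0.007 over the 52 genes and -0.12 over all genes. DESeq2, which called 0.966% of the genes it tested for the interaction, passed Irf1 (coefficient 2.62, FDR 0.0242).

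**Figure D3:**
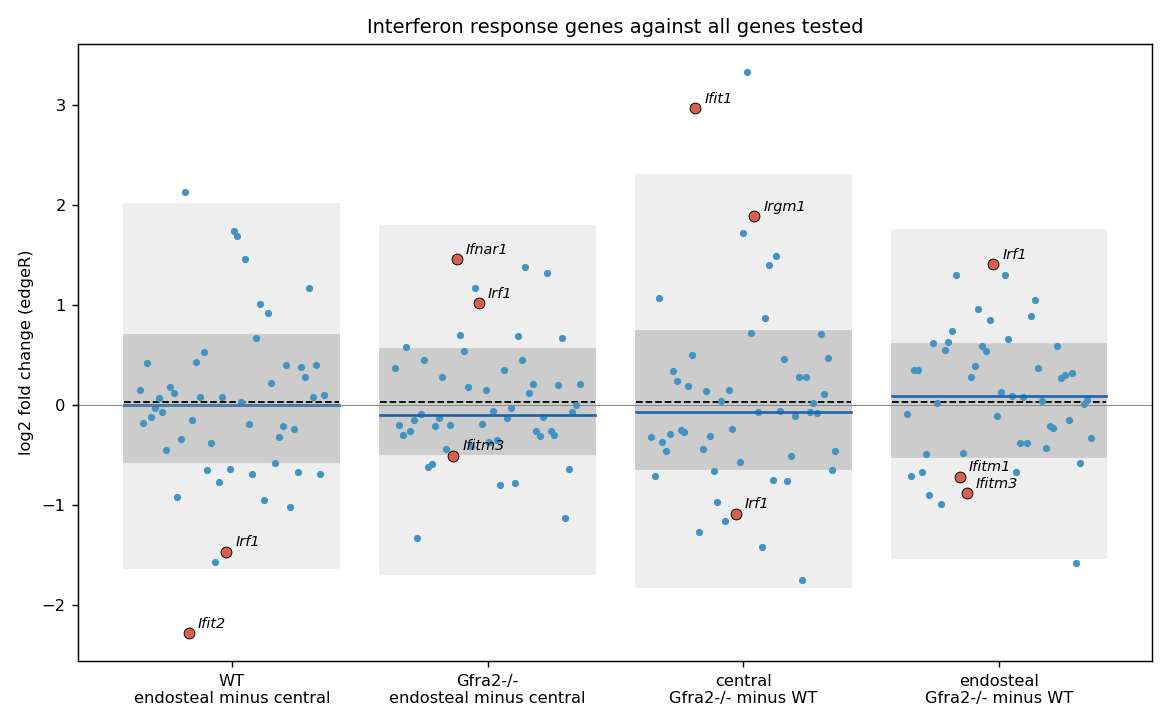
Log2 fold change by edgeR (vertical axis) of the tested interferon response genes (points, ordered by name within a column) in the 4 comparisons (horizontal axis), over all genes tested (light band 5th to 95th percentile, dark band quartiles, dashed line median). Red points are genes with an unadjusted p under 0.05 and blue lines the medians of the interferon response genes, which run from -0.10 to 0.09. No point passes an FDR of 0.1.

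The 3 IFITM genes were lower in endosteal libraries labelled Gfra2-/- than in endosteal WT libraries, although none passed the FDR by edgeR (Ifitm3 and Ifitm1 did by DESeq2). Ifitm3 (chr7:141009586-141010770, minus strand) measured 1102, 824, 1095 and 825 CPM in the endosteal and 852, 1016, 690 and 1035 CPM in the central WT libraries, and 467, 630, 469 and 512 CPM in the endosteal and 595, 851 and 768 CPM in the central libraries labelled Gfra2-/-. The 4 endosteal libraries labelled Gfra2-/- were all below the 4 endosteal WT libraries, with a log2 fold change of -0.88 (SE 0.20, unadjusted p = 0.00114 and FDR 0.491 by edgeR; exact permutation p = 0.0286, the smallest that 4 against 4 libraries allow). Ifitm1 (chr7:140967221-140969825, plus strand) measured 1301, 1354, 1415 and 1175 CPM in the endosteal and 1609, 1568, 1245 and 1307 CPM in the central WT libraries, and 913, 736, 965 and 566 CPM in the endosteal and 1018, 1246 and 962 CPM in the central libraries labelled Gfra2-/-. Again the groups of the endosteal comparison did not overlap, with a log2 fold change of -0.72 (SE 0.20, unadjusted p = 0.00511, FDR 0.645, edgeR). Ifitm2 (chr7:140954837-140955987, minus strand) measured 406, 338, 285 and 317 CPM in the endosteal and 313, 194, 164 and 309 CPM in the central WT libraries, and 269, 273, 196 and 225 CPM in the endosteal and 227, 329 and 271 CPM in the central libraries labelled Gfra2-/-. Its endosteal groups were also separate, at -0.48 (SE 0.22, unadjusted p = 0.0575, FDR 0.741, edgeR), but 40.9% of its exon bases overlap another annotated gene and the counting ignored strand. Reads that fit more than 1 of these related genes are uncertain too.

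The IFITM differences kept their direction without the libraries in doubt, with smaller values for Ifitm1. Without endosteal B and D labelled Gfra2-/-, the log2 fold change between the genotypes was -1.04 for Ifitm3 (unadjusted p = 0.00178, edgeR) and -0.49 for Ifitm1 (unadjusted p = 0.0269). Without the library that held B lineage and erythroid markers it was -0.89 and -0.60. With each of the 8 libraries left out in turn it ran from -1.002 to -0.81 for Ifitm3, from -0.83 to -0.60 for Ifitm1 and from -0.55 to -0.39 for Ifitm2. One library of each group had a share of spike-in reads under 0.5%. Leaving these aside, the difference of mean log2 CPM was -0.95 for Ifitm3 and -0.65 for Ifitm1, and between the low spike-in libraries alone, 1 against 1, it was -0.69 and -1.05, where the library labelled Gfra2-/- is the one with B lineage markers. With spike-in size factors the endosteal values were -0.80 for Ifitm3, -0.86 for Ifitm1 and -0.46 for Ifitm2, relative to a median shift of -0.28 over all genes, and with this scaling 0 of the 50 genes tested had an unadjusted p under 0.05 in endosteal HSCs by edgeR. In central HSCs the genotypes overlapped for all 3 genes, with a log2 fold change of -0.44 for Ifitm1 (SE 0.22, unadjusted p = 0.0635, FDR 0.601, edgeR). Between the compartments of libraries labelled Gfra2-/-, Ifitm3 was -0.51 (SE 0.22) and Ifitm1 -0.44 (SE 0.23), with overlapping groups. Without the 5 libraries they were -0.17 and -0.20. Whether the genotype difference of Ifitm3 differed between the compartments was tested by the interaction, -0.60 (SE 0.31, unadjusted p = 0.0634, FDR 0.713, edgeR). Without the 5 libraries it was -0.24. Of the 20 antiviral effectors tested between the genotypes in endosteal HSCs, these 3 included, 11 had a positive and 9 a negative log2 fold change, with a median of 0.04 beside 0.03 over all genes.

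**Figure D4:**
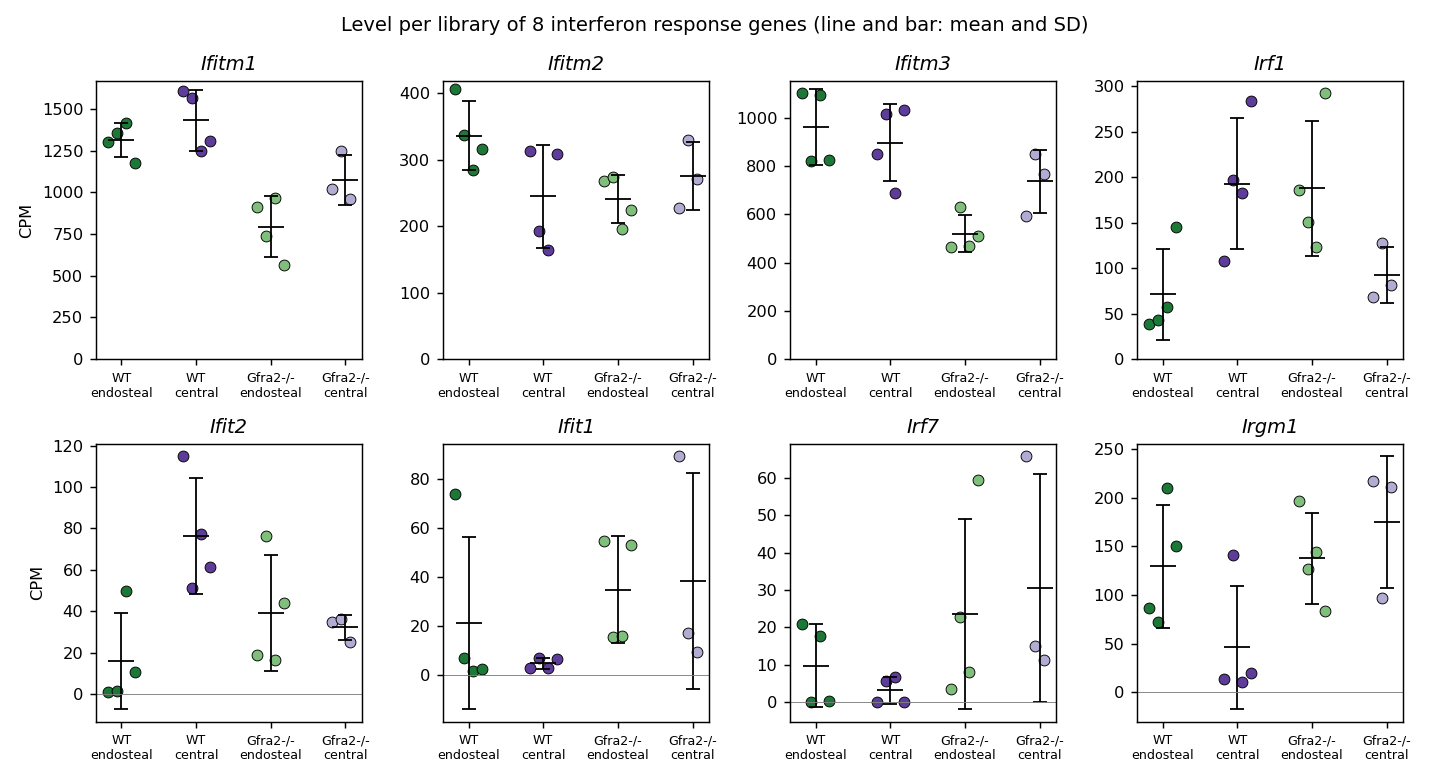
Level in CPM (vertical axes, scales differ) of 8 genes in the 4 groups (horizontal axes), 1 point for each library, with the mean and SD of the group. Endosteal libraries labelled Gfra2-/- lie below endosteal WT libraries without overlap for Ifitm1, Ifitm2 and Ifitm3, while the order of the groups for Irf1 is the opposite in the 2 genotypes.

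Among the other antiviral effectors, Ifit2, which binds foreign RNA as Ifit1 does, was lowest in endosteal WT HSCs. It measured 1.22, 1.66, 49.9 and 10.5 CPM in the endosteal and 115, 51.2, 77.5 and 61.5 CPM in the central WT libraries, and 19, 76.6, 16.6 and 44 CPM in the endosteal and 35, 36.5 and 25.4 CPM in the central libraries labelled Gfra2-/-. All 4 endosteal WT libraries were below all 4 central WT libraries (log2 fold change -2.28, SE 1.05, unadjusted p = 0.0481, FDR 0.626, edgeR; exact permutation p = 0.0286), and 7 of the 8 fits with a library left out gave a p above 0.05. Without WT endosteal C the value was -4.09. Central libraries labelled Gfra2-/- were below central WT ones without overlap (-1.27, SE 0.64, unadjusted p = 0.0701, FDR 0.611, edgeR). Ifit1 measured 73.6, 6.58, 1.63 and 2.29 CPM in the endosteal and 2.71, 6.82, 2.67 and 6.38 CPM in the central WT libraries, and 54.8, 15.6, 15.8 and 52.8 CPM in the endosteal and 89.2, 17 and 9.09 CPM in the central libraries labelled Gfra2-/-. It was thus higher in all 3 central libraries labelled Gfra2-/- than in central WT libraries (2.97, SE 1.12, unadjusted p = 0.0215, FDR 0.471, edgeR), which held only 3, 22, 2 and 19 reads of it. Without central A labelled Gfra2-/-, its highest library, the value was 1.42 (unadjusted p = 0.322), and without the 4 libraries with markers of other lineages 3.38 (unadjusted p = 0.0404, edgeR). In the WT compartment comparison Ifit1 was 2.13 with overlapping groups and -0.49 without WT endosteal A.

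Isg15 was low throughout, with 4.86, 2.92, 1.45 and 3.51 CPM in the endosteal and 4.52, 8.37, 0 and 1.01 CPM in the central WT libraries, and 0.472, 1.51, 0 and 5.93 CPM in the endosteal and 2.81, 6.69 and 0.896 CPM in the central libraries labelled Gfra2-/-. Mx1 measured 0, 0.0665, 3.08 and 0.0816 CPM in the endosteal and 6.33, 0.31, 0 and 0 CPM in the central WT libraries, and 12.9, 24, 0 and 0.0873 CPM in the endosteal and 25.8, 0.66 and 2.18 CPM in the central libraries labelled Gfra2-/-. Both genes overlapped between all groups compared, and Mx1 was above 10 CPM in 3 of the 15 libraries, all labelled Gfra2-/-. Oasl1, a 2′-5′ oligoadenylate synthetase-like gene, had 0, 2, 0 and 0 reads in endosteal WT libraries, 0, 17, 0 and 48 in central WT libraries, 255, 11, 1 and 445 in endosteal libraries labelled Gfra2-/- and 252, 0 and 0 in central ones. Since endosteal WT libraries held 3 reads or fewer, no fold between the WT compartments or the endosteal genotypes is given for Oasl1, and its DESeq2 calls depend on how such counts are modelled. Rsad2, the antiviral radical enzyme viperin, measured 63.9, 46, 12.8 and 0.816 CPM in the endosteal and 5.42, 18, 139 and 85.3 CPM in the central WT libraries, and 21.4, 3.93, 101 and 58 CPM in the endosteal and 33.4, 1.51 and 21 CPM in the central libraries labelled Gfra2-/-. It ranged from 0.816 to 63.9 CPM within the endosteal WT group alone, and its central genotype value of -1.75 (SE 1.203) became -1.001 without WT central C, 0.50 without the 4 libraries with markers of other lineages and 1.43 without the 5.

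Bst2 measured 167, 124, 75.8 and 55.8 CPM in the endosteal and 129, 85, 211 and 50.1 CPM in the central WT libraries, and 66, 77, 53.2 and 61.1 CPM in the endosteal and 38.6, 84.9 and 97 CPM in the central libraries labelled Gfra2-/-. It was 0.71 lower on the log2 scale in endosteal libraries labelled Gfra2-/- (log2 fold change -0.71, SE 0.41, unadjusted p = 0.108, FDR 0.776, edgeR), with overlapping groups. Without WT endosteal A it was -0.42, and the low spike-in libraries alone, 1 against 1, differed by 0.13 in the other direction. Lgals3bp measured 342, 226, 405 and 263 CPM in the endosteal and 171, 162, 86.9 and 342 CPM in the central WT libraries, and 347, 256, 322 and 378 CPM in the endosteal and 509, 294 and 271 CPM in the central libraries labelled Gfra2-/-. Its values were 0.67 (SE 0.41) for the WT compartments and 0.87 (SE 0.46) for the genotypes in central HSCs, each with overlap and with WT central C as the lowest library. The first ran from 0.44 without WT central C to 1.09 without WT central D. It turned to -0.23, relative to the shift of all genes, with spike-in size factors and to -0.38 between the low spike-in libraries alone. Samhd1, which degrades nucleotides needed by viruses, measured 139, 120, 71.2 and 76.5 CPM in the endosteal and 266, 122, 126 and 125 CPM in the central WT libraries, and 104, 103, 175 and 119 CPM in the endosteal and 224, 66.5 and 172 CPM in the central libraries labelled Gfra2-/-. It was -0.67 (SE 0.44) between the WT compartments, and -0.30 without WT central A, which was far above the rest. The remaining effectors, Isg20, Ifi27, Ifi35, Ifi44, Oas2, Oasl2, Mx2, Usp18, Xaf1 and Rtp4, reached an unadjusted p under 0.05 in no comparison.

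Irf1 was the transcription factor with the smallest p-values, and the only one of the 53 genes with an unadjusted p under 0.05 in each of the 4 comparisons. It activates interferon genes and their targets and is itself induced by interferon. Irf1 (chr11:53770014-53778374, plus strand) measured 38.9, 43.3, 56.9 and 145 CPM in the endosteal and 108, 197, 183 and 284 CPM in the central WT libraries, and 186, 151, 123 and 292 CPM in the endosteal and 68.6, 128 and 81.4 CPM in the central libraries labelled Gfra2-/-. In WT HSCs the endosteal libraries were lower than the central ones except for endosteal D, and in libraries labelled Gfra2-/- the endosteal values were the higher ones except for endosteal C, below central B. The log2 fold change was -1.47 (SE 0.51, unadjusted p = 0.0136, FDR 0.508, edgeR) between the compartments in WT and 1.02 (SE 0.39, unadjusted p = 0.0293, FDR 0.999) in libraries labelled Gfra2-/-. Between the genotypes it was 1.41 (SE 0.48, unadjusted p = 0.0149, FDR 0.737, edgeR) in endosteal and -1.09 (SE 0.46, unadjusted p = 0.0362, FDR 0.528) in central HSCs. With each library left out in turn, an unadjusted p under 0.05 was found in 8 of 8 fits for the WT compartments, 4 of 7 for the Gfra2-/- compartments (highest p 0.0991), 3 of 7 for central (highest p 0.125) and 7 of 8 for endosteal HSCs (highest p 0.0555, edgeR). The groups overlapped by 1 library or more in each comparison, and the exact permutation p was 0.0571 in WT and in endosteal HSCs and 0.114 in the other 2 comparisons.

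The difference between the genotypes in the compartment effect of Irf1 was tested directly by the interaction, which was 2.46 (SE 0.68, unadjusted p = 0.00213, FDR 0.523, edgeR). Its p was the smallest of the 52 interferon response genes tested. With each of the 15 libraries left out the coefficient ran from 2.17 to 3.08, with unadjusted p-values of 0.000113 to 0.0095. Without endosteal B and D labelled Gfra2-/- it was 2.14 (unadjusted p = 0.0123), without the 4 libraries with markers of other lineages 1.74 (unadjusted p = 0.0573, edgeR), and without the 5 libraries 2.24 (unadjusted p = 0.0496). In endosteal WT, central WT and endosteal HSCs labelled Gfra2-/-, the low spike-in library was the highest of its group for Irf1, at 145, 284 and 292 CPM. Without the low spike-in libraries the differences of mean log2 CPM were -1.76, 0.68, -0.74 and 1.70 in the order WT compartment, Gfra2-/- compartment, central and endosteal genotype. Between those libraries alone they were -0.96, 1.83, -1.79 and 1.003, each from 1 library against 1, and 3 of these 4 libraries hold markers of other lineages. Among the other libraries Irf1 did not overlap between the WT compartments (38.9 to 56.9 CPM in endosteal and 108 to 197 CPM in central HSCs). Nor did it between the endosteal genotypes (38.9 to 56.9 CPM in WT and 123 to 186 CPM in libraries labelled Gfra2-/-). It still overlapped between the Gfra2-/- compartments and between the central genotypes, with central A and B labelled Gfra2-/- at 68.6 and 128 CPM. The low spike-in set was also fitted as a term in edgeR. The log2 fold change was then -1.62 (FDR 0.455) and 0.98 (FDR 0.976) between the compartments in WT and in libraries labelled Gfra2-/-. Between the genotypes it was -1.06 (FDR 0.600) in central and 1.55 (FDR 0.524) in endosteal HSCs. The interaction was 2.503 (FDR 0.635). The unadjusted p was under 0.05 in each of these fits.

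The other factors varied less regularly. Irf7, the factor that amplifies interferon production, measured 20.9, 0, 17.7 and 0.163 CPM in the endosteal and 0, 5.58, 6.68 and 0 CPM in the central WT libraries, and 3.51, 22.8, 8.08 and 59.6 CPM in the endosteal and 65.8, 14.9 and 11.1 CPM in the central libraries labelled Gfra2-/-. Its central groups did not overlap (log2 fold change 3.33, SE 1.54, unadjusted p = 0.0523, FDR 0.576, edgeR), but central WT libraries held 0, 18, 5 and 0 reads of it. The value was 2.09 without central A labelled Gfra2-/-. Irf3, which switches on interferon genes after virus sensing, measured 62.5, 100, 97.5 and 164 CPM in the endosteal and 19.9, 70.1, 0 and 33.3 CPM in the central WT libraries, and 143, 95.8, 90.3 and 135 CPM in the endosteal and 124, 86.8 and 104 CPM in the central libraries labelled Gfra2-/-. It was 1.74 (SE 0.90, unadjusted p = 0.0736, edgeR) higher in endosteal than in central WT HSCs and 1.72 (SE 0.98, unadjusted p = 0.104, edgeR) higher in central libraries labelled Gfra2-/- than in central WT ones, without overlap. WT central C, the shallowest library, held no read of it. Irf2, a repressor of interferon signalling in HSCs, was the steadiest of the factors, with 97.9, 66.9, 54 and 60 CPM in the endosteal and 94.9, 115, 116 and 103 CPM in the central WT libraries, and 79.3, 54.1, 81.3 and 42.7 CPM in the endosteal and 75.4, 74.3 and 71 CPM in the central libraries labelled Gfra2-/-. Its compartment value in WT was -0.64 (SE 0.45), with overlapping groups, while central libraries labelled Gfra2-/- were all below the central WT ones, at 71.1 to 75.4 CPM against 94.9 to 116 CPM (-0.57, SE 0.46, unadjusted p = 0.243, edgeR).

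Of the factors that bind the ISRE, Irf9 measured 102, 64.8, 101 and 47.7 CPM in the endosteal and 108, 98.9, 30.8 and 67.9 CPM in the central WT libraries, and 174, 107, 59.5 and 155 CPM in the endosteal and 185, 169 and 33.9 CPM in the central libraries labelled Gfra2-/-. Its endosteal genotype value was 0.66 (SE 0.42, unadjusted p = 0.145, edgeR). It was 0.44 without endosteal A labelled Gfra2-/-. Stat2 measured 128, 46.3, 37.7 and 71 CPM in the endosteal and 16.3, 94.6, 25.4 and 92.7 CPM in the central WT libraries, and 81.8, 38.5, 80.4 and 149 CPM in the endosteal and 38.6, 14.5 and 112 CPM in the central libraries labelled Gfra2-/-, with overlapping groups in every comparison. Nmi, which binds STAT proteins, measured 30.9, 41.8, 36.7 and 8.16 CPM in the endosteal and 93.1, 40.9, 26.7 and 62.5 CPM in the central WT libraries, and 61.5, 71, 47.1 and 38.8 CPM in the endosteal and 37.9, 37.7 and 26.1 CPM in the central libraries labelled Gfra2-/-. Endosteal libraries labelled Gfra2-/- were all above the central ones, by a narrow gap (log2 fold change 0.69, SE 0.46, unadjusted p = 0.168, FDR 0.999, edgeR; exact permutation p = 0.0571, the smallest that 4 against 3 libraries allow). The receptor kinase gene Tyk2 reached an unadjusted p under 0.05 in no comparison.

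All 4 receptor genes were expressed, in the order Ifngr1 (median 92.8 TPM), Ifnar2 (50.3 TPM), Ifnar1 (26.9 TPM) and Ifngr2 (11.9 TPM). Ifngr1 measured 33.3, 101, 59 and 146 CPM in the endosteal and 226, 91.2, 56.1 and 59.8 CPM in the central WT libraries, and 95.7, 214, 97.5 and 252 CPM in the endosteal and 133, 131 and 75.1 CPM in the central libraries labelled Gfra2-/-. Ifnar2 measured 24.8, 73.5, 56.7 and 98.7 CPM in the endosteal and 85.8, 144, 18.7 and 141 CPM in the central WT libraries, and 55.9, 35.6, 69 and 170 CPM in the endosteal and 49.9, 39.3 and 63.6 CPM in the central libraries labelled Gfra2-/-. Both genes were highest in endosteal D labelled Gfra2-/-, the library with B lineage markers. The endosteal genotype value of Ifngr1 was 0.96 (SE 0.51, unadjusted p = 0.0865, edgeR) with this library and 0.67 (unadjusted p = 0.247) without it. Ifnar1 measured 129, 58.8, 72.4 and 51.4 CPM in the endosteal and 108, 19.5, 28.1 and 55.8 CPM in the central WT libraries, and 40.5, 58.5, 114 and 161 CPM in the endosteal and 57.3, 29.8 and 15.8 CPM in the central libraries labelled Gfra2-/-. Its compartment value in libraries labelled Gfra2-/- was 1.46 (SE 0.64, unadjusted p = 0.048, FDR 0.999, edgeR), 0.73 (unadjusted p = 0.287) without endosteal D and central C, and 0.34 (unadjusted p = 0.681) when central B was left out as well. Ifngr2 measured 9.23, 9.31, 45.8 and 1.63 CPM in the endosteal and 47, 62, 84.2 and 2.35 CPM in the central WT libraries, and 50.8, 19.7, 14.3 and 14.7 CPM in the endosteal and 40.7, 8.57 and 17 CPM in the central libraries labelled Gfra2-/-, which varied as widely within groups as between them. The log2 fold changes of the 4 receptors were all positive between the genotypes in endosteal HSCs (median 0.49) and between the compartments in libraries labelled Gfra2-/- (median 0.62), and 1 of 4 was positive in each of the other 2 comparisons (medians -0.51 in WT and -0.81 in central HSCs). Apart from Ifnar1, none reached an unadjusted p under 0.05, and their summed level was 243 to 328 CPM in 3 of the endosteal libraries labelled Gfra2-/-, 597 CPM in endosteal D, the one with B lineage and erythroid markers, and 196 to 297 CPM in endosteal WT libraries.

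Among the RNA sensors, Ddx58, which encodes RIG-I, was the one with separate groups. It measured 39.6, 102, 47.5 and 110 CPM in the endosteal and 66.9, 61.7, 25.4 and 65.2 CPM in the central WT libraries, and 52.7, 142, 124 and 62.1 CPM in the endosteal and 136, 136 and 81.4 CPM in the central libraries labelled Gfra2-/-. All central libraries labelled Gfra2-/- were above the central WT ones (log2 fold change 1.07, SE 0.55, unadjusted p = 0.0756, FDR 0.616, edgeR), and the value was 1.03 without the 4 libraries with markers of other lineages. Its relatives Ifih1 (MDA5) and Dhx58 (LGP2), the RNA-activated kinase Eif2ak2 (PKR) and the RNA-editing enzyme Adar reached an unadjusted p under 0.05 in no comparison. Adar shares 16.8% of its exon bases with another annotated gene.

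Of the interferon-inducible GTPases, Irgm1, which acts against microbes in vacuoles and is known to preserve HSC function, measured 86.3, 72.5, 210 and 150 CPM in the endosteal and 13.6, 141, 10.7 and 19.5 CPM in the central WT libraries, and 196, 127, 144 and 83.3 CPM in the endosteal and 217, 97.3 and 210 CPM in the central libraries labelled Gfra2-/-. In 3 of the 4 central WT libraries it was at 10.7 to 19.5 CPM, and central B was at 141 CPM, within the range of the other groups. Its value was 1.89 (SE 0.84, unadjusted p = 0.0442, FDR 0.555, edgeR) between the genotypes in central HSCs, 3.53 (unadjusted p = 0.000182, FDR 0.183) without WT central B, 0.96 (unadjusted p = 0.365) without the 4 libraries with markers of other lineages and 1.41 (unadjusted p = 0.166) without the 5. Gbp7 measured 154, 167, 127 and 88.8 CPM in the endosteal and 169, 212, 143 and 199 CPM in the central WT libraries, and 170, 321, 130 and 198 CPM in the endosteal and 300, 188 and 165 CPM in the central libraries labelled Gfra2-/-. Its endosteal genotype value was 0.62 (SE 0.34, unadjusted p = 0.0993, edgeR), with overlap. It was 0.30 without endosteal B labelled Gfra2-/-. Gbp2 measured 59.8, 135, 23.8 and 8 CPM in the endosteal and 30.7, 122, 33.4 and 48.7 CPM in the central WT libraries, and 44.5, 33.3, 33.4 and 10.4 CPM in the endosteal and 10, 118 and 99.6 CPM in the central libraries labelled Gfra2-/-, with a compartment value of -1.33 (SE 0.80) in libraries labelled Gfra2-/-. This was -0.85 without central B and turned to 1.91 when endosteal D and central C were left out as well. Iigp1 measured 17.2, 13, 36.1 and 34.8 CPM in the endosteal and 16.3, 33.5, 20.1 and 24.2 CPM in the central WT libraries, and 31.2, 59.7, 60.5 and 30.9 CPM in the endosteal and 8.11, 14.6 and 37.8 CPM in the central libraries labelled Gfra2-/-, with a compartment value of 1.17 (SE 0.69) in the same libraries and of 2.01 without central C, and Igtp reached an unadjusted p under 0.05 in no comparison.

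The ubiquitin and ADP-ribose enzymes Trim21, Trim25, Parp9, Parp14 and Dtx3l, and the nuclear body and immunoproteasome genes Sp100, Psmb8 and Psmb9, also gave no unadjusted p under 0.05. Trim25, the ubiquitin ligase of RIG-I, measured 232, 68.9, 83.3 and 71 CPM in the endosteal and 28.9, 165, 110 and 123 CPM in the central WT libraries, and 26.8, 74.2, 86.1 and 114 CPM in the endosteal and 78.5, 148 and 124 CPM in the central libraries labelled Gfra2-/-. WT endosteal A was far above the other endosteal WT libraries, and the compartment value in libraries labelled Gfra2-/- was -0.64 (SE 0.49, unadjusted p = 0.229, edgeR). It was -0.35 without endosteal A. Psmb8, a catalytic subunit of the immunoproteasome, was among the steadiest genes, with a coefficient of variation of 25.9% over the 15 libraries. Psmb8 and Psmb9 lie close together on chromosome 17, and their endosteal genotype values, with that of Sp100, were all negative (median -0.21).

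**Figure D5:**
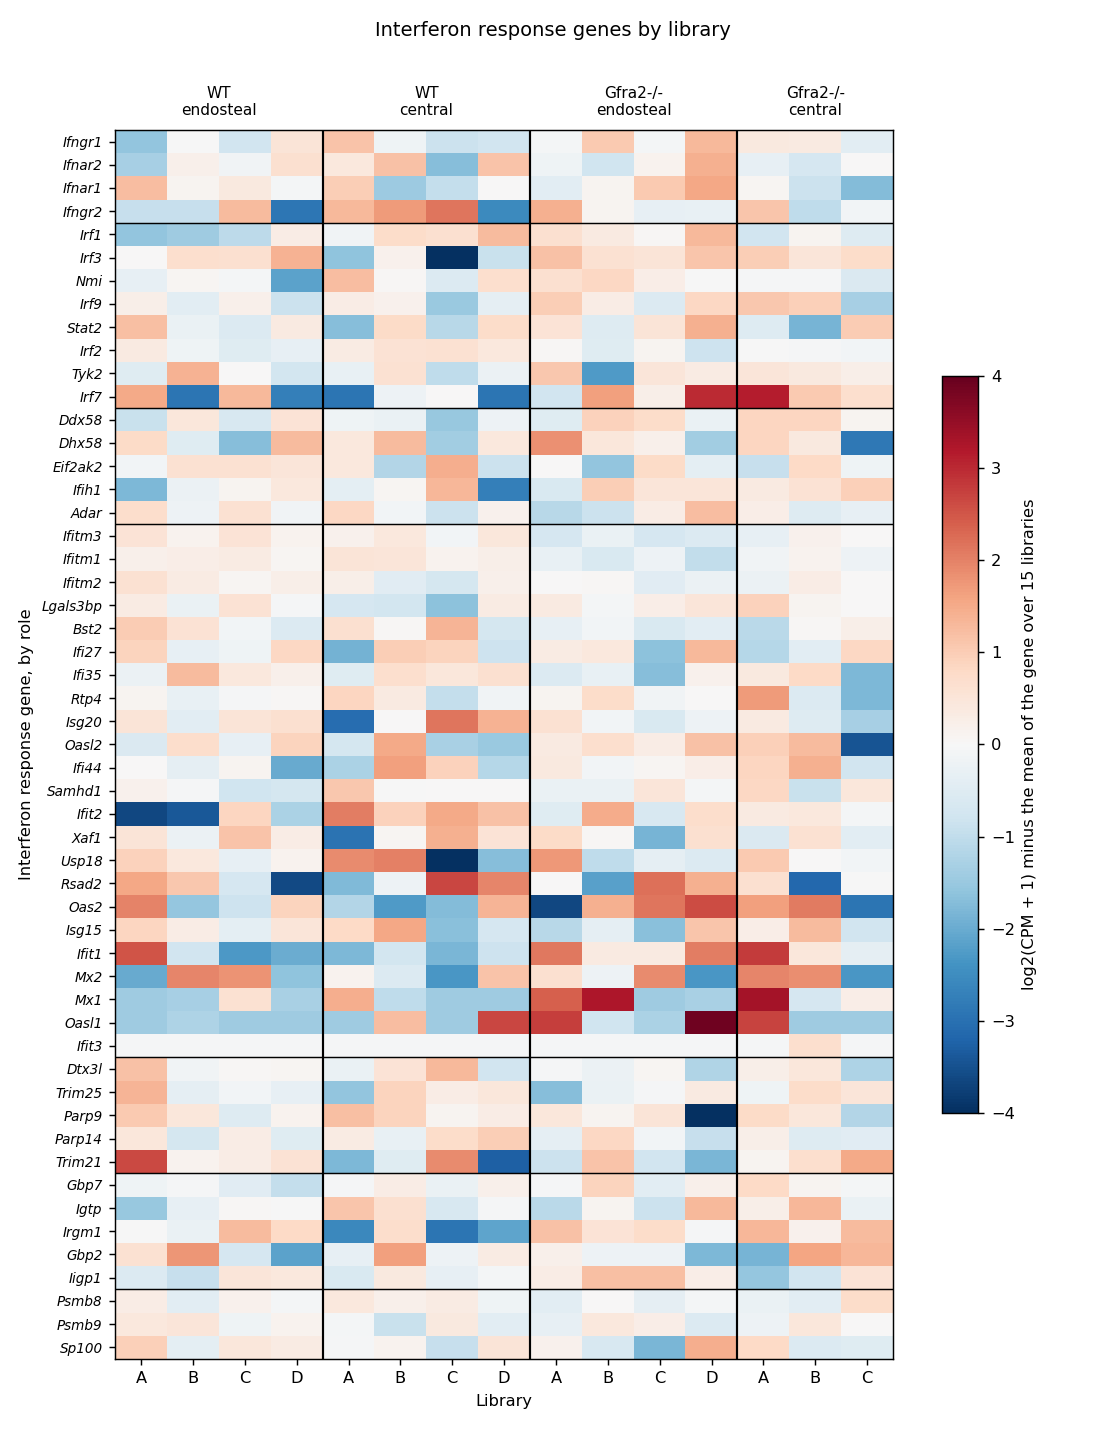
Log2(CPM + 1) of each of the 53 genes minus its mean over the 15 libraries (colour, red above and blue below the mean) by library (horizontal axis, grouped) and gene (vertical axis, in the order receptors, factors, sensors, effectors, ubiquitin and ADP-ribose enzymes, GTPases, nuclear body and immunoproteasome). Ifitm3, Ifitm1 and Ifitm2 are near white throughout and pale blue in endosteal libraries labelled Gfra2-/-, while Irf7, Mx1 and Oasl1 are dark red in single libraries and Irf3, Usp18 and Parp9 dark blue in 1 each.

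A further 120 genes of the pathway were read in the same fits: the 21 ligands, 13 genes of the signal chain, 15 of nucleic acid sensing and 71 that interferon induces. Of these, 71, 80, 73 and 76 were tested in the WT compartment, Gfra2-/- compartment, central genotype and endosteal genotype comparisons, and 0 passed an FDR of 0.1. At an unadjusted p under 0.05, 3 were higher and 1 lower in the first comparison, 2 and 3 in the second, 4 and 3 in the third and 3 and 3 in the fourth, against 7.89%, 4.79%, 8.73% and 6.69% of all genes in either direction. The medians were 0.04, 0.03, 0.14 and -0.05. For the interaction 83 were tested, 3 with a positive and 5 with a negative coefficient at an unadjusted p under 0.05, against 6.97% of all genes.

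Oas3, which makes the 2′-5′ oligoadenylates that activate RNase L, measured 119, 130, 71.2 and 86.2 CPM in the endosteal and 51.5, 48.1, 104 and 119 CPM in the central WT libraries, and 6.21, 44.3, 15.4 and 8.29 CPM in the endosteal and 44.3, 102 and 179 CPM in the central libraries labelled Gfra2-/-. Endosteal libraries labelled Gfra2-/- were all below endosteal WT ones (log2 fold change -2.45, SE 0.66, unadjusted p = 0.0037, FDR 0.644, edgeR), and the interaction was -2.88 (SE 0.90, unadjusted p = 0.00506, FDR 0.523). Ly6e, a membrane-anchored interferon-induced protein, measured 1534, 1228, 1115 and 1274 CPM in the endosteal and 1251, 1414, 1583 and 554 CPM in the central WT libraries, and 868, 837, 731 and 928 CPM in the endosteal and 745, 997 and 1138 CPM in the central libraries labelled Gfra2-/-. It too was separate between the genotypes in endosteal HSCs (-0.61, SE 0.18, unadjusted p = 0.00568, FDR 0.646, edgeR). Il10rb, a receptor chain shared by interleukin 10 and type III interferons, measured 12.9, 39.5, 37.1 and 36.2 CPM in the endosteal and 0.904, 3.72, 4.01 and 1.34 CPM in the central WT libraries, and 42, 39.9, 19.5 and 43.8 CPM in the endosteal and 53.2, 15.6 and 56.5 CPM in the central libraries labelled Gfra2-/-. Central WT libraries were below each of the other groups, by 3.64 against endosteal WT (SE 1.04, unadjusted p = 0.00388, FDR 0.449, edgeR) and by 4.06 against central Gfra2-/- (SE 1.10, unadjusted p = 0.00322, FDR 0.318), where they held 1, 12, 3 and 4 reads of it.

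Tap1, the peptide transporter of antigen presentation, measured 415, 328, 192 and 211 CPM in the endosteal and 377, 332, 462 and 284 CPM in the central WT libraries, and 112, 128, 191 and 330 CPM in the endosteal and 128, 201 and 171 CPM in the central libraries labelled Gfra2-/-. In central HSCs the libraries labelled Gfra2-/- were below the WT ones (-1.15, SE 0.34, unadjusted p = 0.00534, FDR 0.334, edgeR), without overlap. Stat3, which carries cytokine signals, measured 320, 257, 159 and 173 CPM in the endosteal and 440, 259, 345 and 298 CPM in the central WT libraries, and 237, 276, 370 and 181 CPM in the endosteal and 187, 156 and 199 CPM in the central libraries labelled Gfra2-/-, and was lower in the same way (-0.92, SE 0.34, unadjusted p = 0.0179, FDR 0.453). Irf8, a factor of monocytes, dendritic cells and B cells, measured 0.243, 0.133, 7.89 and 0.245 CPM in the endosteal and 0.904, 29.8, 222 and 9.41 CPM in the central WT libraries, and 18.5, 1.21, 18.9 and 360 CPM in the endosteal and 0, 0.471 and 188 CPM in the central libraries labelled Gfra2-/-. Its 3 highest values fell in libraries with markers of those lineages, and its fitted values of -4.92 between the WT compartments and 5.53 between the genotypes in endosteal HSCs stand beside them. The part of such cells in these values was not tested. Cd69, an activation marker of lymphocytes, measured 0, 0, 2.72 and 0.0816 CPM in the endosteal and 2.71, 0, 10.7 and 0 CPM in the central WT libraries, and 18.1, 4.58, 21.7 and 31.5 CPM in the endosteal and 0, 0.754 and 0 CPM in the central libraries labelled Gfra2-/-. It was higher in endosteal than in central libraries labelled Gfra2-/- (6.18, SE 1.90, unadjusted p = 0.0103, FDR 0.896, edgeR), where central libraries were at or near 0. Lgals9 (0.85 between the same groups), Oas1g (3.98 between the WT compartments) and Parp11 (interaction -1.71) were the other genes named by their p, with FDR values of 0.994, 0.578 and 0.592.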

How the data were processed

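The authors deposited 1 table of raw read counts per gene, made from Smart-seq2 libraries sequenced as single-end reads. Per the submitters' processing notes, reads were aligned with GSNAP (2015-09-29) and counted with HTSeq (0.5.3p3), per the study without regard to strand. The deposited counts cover 46078 mouse genes (GRCm38), 92 spike-in RNAs and 5 summary rows. The summary rows, 54.6% to 80.3% of all counted reads in a library, stayed out of library sizes and tests. GEO lists 16 samples. Of the table's columns 15 were tied to a group by their names and the study's supplementary list, and 1 column that could not be tied to a sample was not used. Libraries held 826487 to 18550008 reads on genes. The study's quality limits include 1500000 uniquely mappable reads and 8500 high coverage genes. They were applied here to reads on genes and to genes with 10 or more counts, which may differ from the study's measures. By these counts WT central A and C fall under the limits, and they were kept in the main fits. Without them, 0 of 13737 genes passed the FDR between the WT compartments. Of 51 interferon response genes, 0 were higher and 2 lower there at an unadjusted p under 0.05 (edgeR). Reads carry no molecular identifiers, so counts of 0 cover counting error only.

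Gene symbols come from GENCODE, and 45143 genes were ranked by TPM, which was computed here from counts and exon length. CPM used TMM-normalised totals over the 15 libraries. Each comparison was fitted on its own groups, the interaction on all 4, with edgeR 4.0.16 in R 4.3.3 (filterByExpr, TMM, quasi-likelihood test, Benjamini-Hochberg adjustment over all genes tested, FDR 0.1). Exact permutation tests on CPM were two-sided (scipy 1.17.1, Python 3.11.15, numpy 2.4.6, pandas 2.3.3), with a smallest possible p of 0.0286 for 4 against 4 libraries and 0.0571 for 4 against 3. The procedure was tested on simulated data. Alternatives were DESeq2 1.42.0, other size factors, other count filters, thinned counts, 1 fit over all groups, the low spike-in set as a term and libraries left out.

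The interferon response genes and all gene lists were chosen with earlier results of these data known. Values per library are given for the 4 genes of smallest unadjusted p in each direction of each comparison, the 3 of smallest interaction p, the receptors, Stat2, Irf1, Irf7, Irf9, and Isg15, Ifit1, Ifit3, the IFITM genes, Mx1 and Bst2. Of the other pathway genes the 3 of smallest p in each comparison are named. Promoter windows came from the RefSeq table of GRCm38.p6.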

Additional observations from a re-analysis of the deposited data

Results flagged for a closer look

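Of the 30 interferon response genes given by library, groups of 4 libraries were examined for a single value far from the rest. Such a value was held by 9 of 86 groups. The nominal chance rate is about 1 in 20 groups, but whether it holds for CPM of such small pools was not tested. In central WT HSCs the highest library stood apart for Irgm1 (140.8 CPM, library B), Samhd1 (266.5 CPM, A) and Mx1 (6.325 CPM, only 7 reads, A). In endosteal WT HSCs the highest library stood apart for Ifit1 (73.63 CPM, A), Trim25 (231.8 CPM, A), Irf1 (145.4 CPM, D) and Mx1 (3.083 CPM, only 34 reads, C). The highest library also stood apart for Ifngr2 in endosteal HSCs labelled Gfra2-/- (50.8 CPM, A). The lowest library did for Ddx58 in central WT HSCs (25.4 CPM, C, the library with monocyte markers and the fewest reads). For 2 genes the difference between endosteal and central HSCs differed between the genotypes at an unadjusted p under 0.05 in edgeR's interaction test, and neither passed the FDR. The coefficient was 2.462 for Irf1 (FDR 0.523) and 8.055 for Oasl1 (FDR 0.644), a gene with 2 reads in all endosteal WT libraries together, so that its coefficient, which contains the fold against these libraries, depends on how counts of 0 are modelled and is no bound. With each of the 15 libraries left out, the coefficient of Oasl1 ran from 6.577 to 16.63 (without central A labelled Gfra2-/-), and its unadjusted p stayed under 0.05 in 11 of the 15 fits.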

How the results depend on the processing

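No paired analysis was possible because the table names no replicate number for any library. With DESeq2 in place of edgeR, 1 interferon response gene passed an FDR of 0.1 between the WT compartments, 1 between the genotypes in central and 3 in endosteal HSCs, and 1 for the interaction. Over all genes, DESeq2 called 607, 397, 725, 532 and 245 genes in the WT compartment, Gfra2-/- compartment, central genotype, endosteal genotype and interaction tests, against 0, 0, 6, 0 and 0 with edgeR, and edgeR without a filter on low counts called 58 in the first and 134 in the third. The cause was not tested.

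The median log2 fold change of the interferon response genes moved in 4 of the tests. With spike-in size factors, which shifted the median of all genes by 1.58, -0.455 and -2.182, it was -0.233 between the WT compartments, 0.146 between the Gfra2-/- compartments and 0.498 for the interaction, each relative to that shift. Without the low spike-in libraries it was -0.255 between the WT compartments and -0.195 for the interaction, and with thinned counts 0.222 for the interaction. Without the 4 libraries with markers of other lineages, a choice made after seeing the data, as were leaving out central B labelled Gfra2-/- with them (the 5 libraries), leaving out endosteal B and D labelled Gfra2-/- and the low spike-in set as a term of the fit, it was 0.125 between the genotypes in central HSCs. With 1 library left out it ran from -0.195 to 0.204 between the Gfra2-/- compartments and from -0.12 to 0.217 for the interaction. In 684 refits of single genes the direction was kept and the gene stayed above an FDR of 0.1, as all had in the main fits. In 4 refits a gene passed the FDR that it had not passed in the main fit. In 6 refits the direction turned. Between the WT compartments with spike-in size factors, Lgals3bp was -0.226 and Ifit1 -0.245. With 1 library left out Ifit1 ran from -0.487 (without WT endosteal A) to 2.519, Rsad2 was 0.503 between the genotypes in central HSCs without the 4 libraries and 1.427 without the 5, and Gbp2 was 1.909 between the Gfra2-/- compartments without the 5. Of 13 unadjusted p-values under 0.05, 4 stayed there with each library left out, those of Irf1 in WT and in the interaction and of Ifitm1 and Ifitm3 in endosteal HSCs. With spike-in size factors 0 genes had such a p in endosteal HSCs. With the low spike-in set as a term, 0 interferon response genes passed the FDR in each test. Central WT libraries held 826487 to 3367289 reads, so weakly expressed genes had few reads there.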
